A study of Homo sapiens with 9 samples.

Results

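The amino acid transporters examined here are 10 genes of the solute carrier families: SLC7A1, SLC7A2, SLC7A5, SLC7A11, SLC3A2, SLC1A4, SLC1A5, SLC38A1, SLC38A2 and SLC43A1. Every probe set whose only platform symbol was one of these names was taken, which gave 27 of the 41091 probe sets with a single symbol and 10 of 19775 genes. RNA came from LiSa-2, an established human liposarcoma line, hybridised to Affymetrix U133 Plus 2.0 arrays, with 1 array per sample. Cells on plates received PBS, or bovine testicular hyaluronidase (HAase, an enzyme that digests the matrix polymer hyaluronan) at 400 µg/mL. The 3 groups of 3 arrays are PBS harvested at 24 h, HAase at 6 h and HAase at 24 h. All are 1 unmodified line in medium with bovine serum, and no inactivated enzyme is among them. Because PBS arrays exist at 24 h alone, the enzyme and the time of harvest cannot be told apart in the 6 h comparison. Between 6 and 24 h of HAase, time with the enzyme and time of harvest cannot be told apart either. The labels do not say whether a group's samples were separate cultures, so p-values measure no more than how these arrays vary, and that variation may be technical.

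Amino acids cross the plasma membrane through carriers that differ in substrate and driving ion. SLC3A2 (CD98hc) is a single-pass heavy chain that brings light chains to the cell surface, among them SLC7A5 (LAT1), an exchanger of large neutral amino acids, and SLC7A11 (xCT), which imports cystine in exchange for glutamate. SLC7A1 and SLC7A2 carry arginine and lysine, SLC1A4 and SLC1A5 exchange alanine, serine, cysteine or glutamine with sodium, SLC38A1 and SLC38A2 import glutamine and other small neutral amino acids with sodium, and SLC43A1 (LAT3) is a facilitative carrier of branched-chain amino acids. ATF4, a transcription factor translated when amino acids are scarce or the endoplasmic reticulum is stressed, and its partners of the C/EBP family bind composite response elements near many genes of this group.

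RefSeq promoter windows (assembly GRCh38.p14, 250 bases before to 50 bases after an annotated start) were matched by symbol to 8 of the 10 genes, all but SLC7A2 and SLC7A11, and held 15 windows. The core of the ATF4 and C/EBP response element, searched as TGATGNAA on both strands, lay in 5 of these 15 windows and in 5 of the 8 genes. Among all 35116 windows 3.62% held it, and 4.46% of 27305 genes held it in at least one window. The 5 transporters with a match all rose at 24 h compared with PBS. SLC7A5 (6.49-fold) and SLC38A2 (1.14-fold), with a window but no match, rose as well. SLC43A1, also without a match, was not called. Any link between the motif and the rise was not tested. Stretches of 30 bases around each match are shown. They run 5′ to 3′ on the gene's strand, with the match in capitals. TGATGNAA read on the opposite strand appears in 2 of them as TTGCATCA or TTACATCA.
SLC1A4: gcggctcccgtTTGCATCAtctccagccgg
SLC3A2: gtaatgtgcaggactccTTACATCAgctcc
SLC38A1: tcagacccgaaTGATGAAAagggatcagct
SLC7A1: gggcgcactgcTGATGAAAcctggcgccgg
SLC1A5: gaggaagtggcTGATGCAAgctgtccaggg
These stretches lie at chr2:64989381-64989410 (plus strand), chr11:62881719-62881748 (plus), chr12:46266502-46266531 (minus), chr13:29595663-29595692 (minus) and chr19:46784893-46784922 (minus), in that order. Counted from the annotated start of the window that holds it, the match begins 7 bases before that start in SLC1A4, 37 after it in SLC3A2, 4 before it in SLC38A1, 7 after it in SLC7A1 and 97 before it in SLC1A5. SLC3A2 and SLC1A5 have 3 windows each, SLC1A4 and SLC38A1 2 each and SLC7A1 1, so a match before one start of a gene can lie after another. A match describes letters in a window and is not evidence of binding.

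The core of the antioxidant response element, TGACNNNGC on both strands, is less rare, in 13.3% of all windows and 16.1% of genes. It lay in 4 of the 15 windows, those of SLC1A5, SLC3A2, SLC7A1 and SLC7A5. SLC7A5, whose single window held no TGATGNAA, is shown with SLC3A2, its heavy chain.
SLC7A5: gcggggttccTGACGCAGCtgcgggcggcg
SLC3A2: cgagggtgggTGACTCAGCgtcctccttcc
These stretches are chr16:87869490-87869519 (minus strand) and chr11:62881652-62881681 (plus), and their matches begin 2 and 37 bases before the annotated start of their window. The SLC3A2 match contains TGACTCA, the letters of an AP-1 element (TGANTCA, in 7.71% of all windows), so the motifs overlap there. The other window of a member with TGANTCA was one of SLC38A1.

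Signals are the deposited linear intensities. Differences are on the scale log2(signal + 16), tested with limma over all 13842 genes that passed a filter on low values, and called at an adjusted p under 0.05. Each gene stands by its brightest probe set. All 10 genes passed the filter, and their brightest probe sets lay above the brightest of 27 Bacillus subtilis control probe sets on every array. Levels of different genes are not compared, because each probe set has its own brightness. Signals had been scaled per array before deposit. Precision is limited by having 3 arrays a group.

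Most of these carriers were higher after 24 h of HAase. Of the 10 genes, 8 rose and none fell by limma at 24 h compared with PBS, where 17.5% of all tested genes rose and 22.8% fell (called in either direction, 40.3%). At an unadjusted p under 0.05 the counts were likewise 8 and 0, for which no share of all genes is given. Arrays did not overlap for 8 of the 10 genes, beside 52% of all genes. The median difference was 0.75 over the 10 genes and -0.026 over all genes. SLC7A5 and SLC7A11 led with folds of 6.49 and 6.28, followed by SLC38A1, SLC7A1, SLC1A4, SLC3A2, SLC1A5 and SLC38A2. SLC7A2 and SLC43A1 did not pass. The 10 genes were chosen with earlier results of these data known, so these counts are descriptions.

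At 6 h compared with PBS, 5 of the 10 rose (SLC7A11, SLC7A5, SLC7A1, SLC3A2 and SLC1A5) and SLC1A4 fell. The background there was 15% of genes higher and 27.4% lower (42.4% in either direction), with medians of 0.34 for the 10 genes and -0.083 for all. From 6 to 24 h, 7 rose and none fell, by limma at an adjusted p and also at an unadjusted p under 0.05. Among all genes, 19.7% were higher and 13.3% lower (33% in either direction) at an adjusted p. Medians were 0.47 and 0.053. Arrays of the 2 times did not overlap for 8 of the 10, the 7 that rose and SLC43A1, beside 45.9% of all genes.

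**Figure D1:**
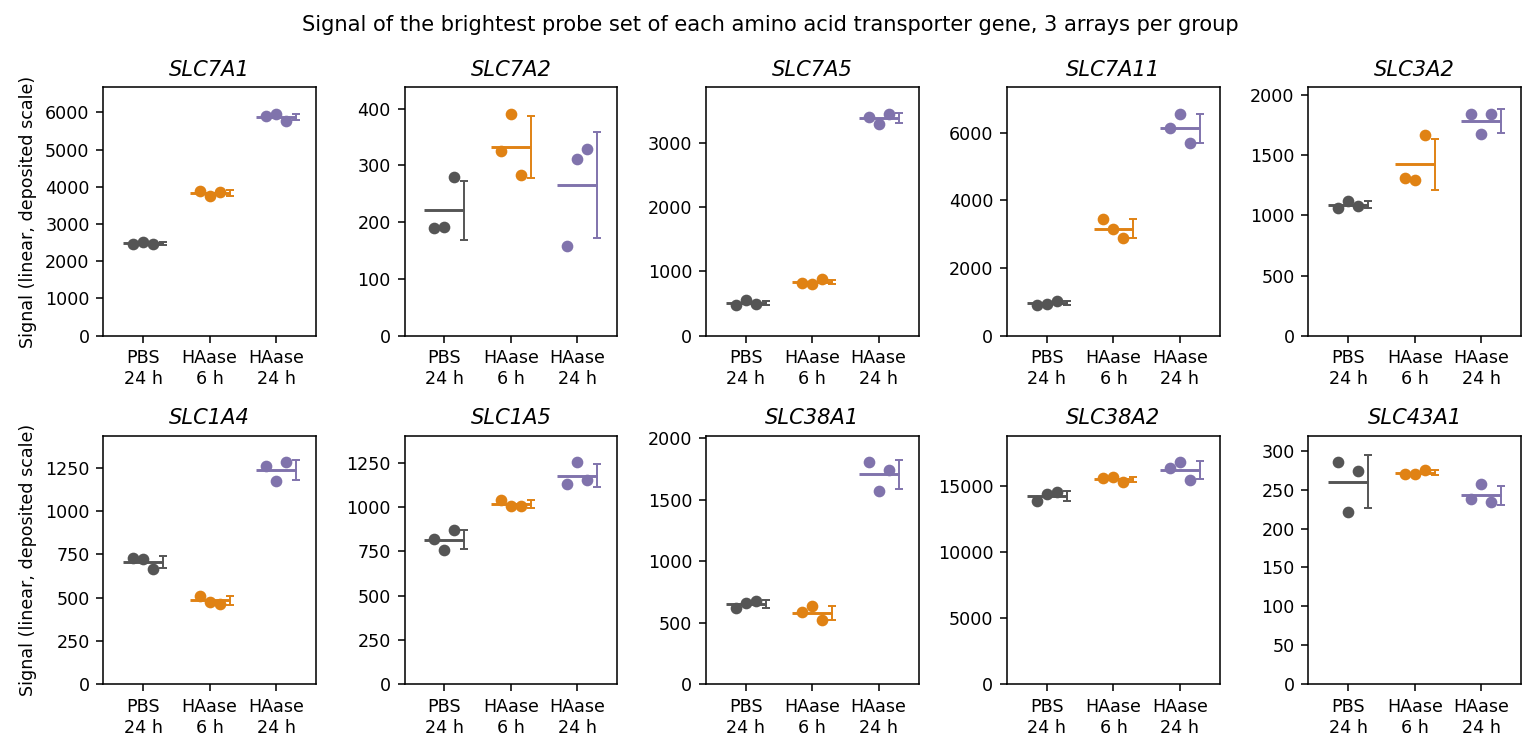
Signal intensity (linear, each panel with its own axis from 0) of the brightest probe set of each of the 10 transporters; points are single arrays, horizontal lines the mean and whiskers the SD of 3 arrays for PBS, HAase 6 h and HAase 24 h. SLC7A5 and SLC7A11 stand clear of PBS at both times, SLC1A4 lies below PBS at 6 h and above it at 24 h, and the SLC43A1 arrays of 24 h overlap those of PBS.

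**Figure D2:**
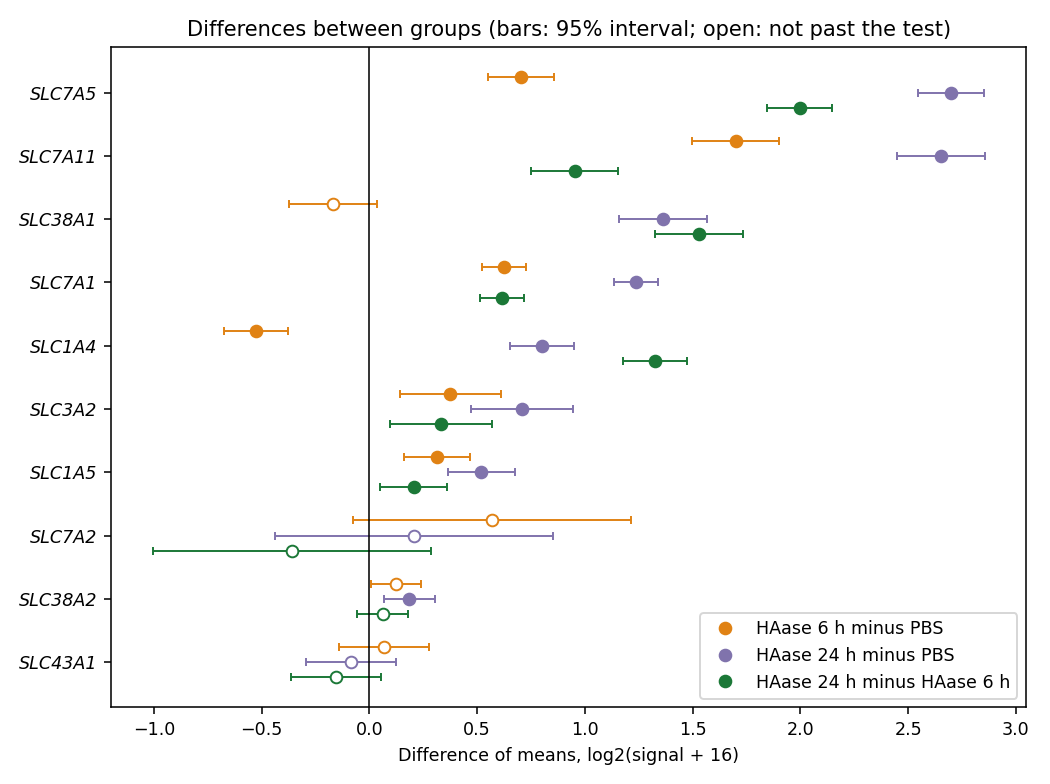
Differences on the log2(signal + 16) scale with 95% confidence intervals from limma for the 3 comparisons, 1 row per transporter. At 24 h, 8 of the 10 intervals lie above 0; at 6 h that of SLC1A4 lies below 0.

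The light chain SLC7A5 (Entrez 8140, probe set 201195_s_at) gave signals of 484, 553 and 489.9 in PBS, 828, 807 and 878 at 6 h and 3403, 3304 and 3454 at 24 h. The groups do not overlap, and the 24 h arrays stand far above both others. Means were 509 ± 38.0, 838 ± 36.2 and 3387 ± 76.6 (SD, n = 3). The log2 difference from PBS was 0.70 ± 0.065 (SE; adjusted p = 1.01e-04) at 6 h and 2.70 ± 0.065 (SE; adjusted p = 6.61e-08) at 24 h. From 6 to 24 h the signal rose 3.99-fold, a difference of 1.996 ± 0.065 (SE; adjusted p = 1.43e-06), which ranked 27th from the top of 13842 genes. Its difference at 24 h ranked 78th. This is its only probe set with a single symbol. Its name ends in _s_at, so it may share sequence with related transcripts, and SLC7A5 has pseudogene copies. Probe sets of other genes below whose names end in _s_at or _x_at may likewise share sequence with other transcripts.

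SLC7A11 (Entrez 23657, probe set 209921_at), the cystine importer, gave 912, 944 and 1029.6 in PBS, 3451, 3163 and 2881 at 6 h and 6141, 6556 and 5698 at 24 h. Every 6 h array was above every PBS array and below every 24 h array. Means were 962 ± 60.6, 3165 ± 285 and 6132 ± 429 (SD, n = 3). The rise was 3.25-fold at 6 h, a log2 difference of 1.70 ± 0.087 (SE; adjusted p = 4.34e-06), and 6.28-fold at 24 h, 2.65 ± 0.087 (SE; adjusted p = 2.93e-07). From 6 to 24 h it rose by a further 0.95 ± 0.087 (SE; adjusted p = 1.48e-04). A second probe set, 217678_at, differed from PBS by 1.85 at 6 h and 2.68 at 24 h. The third, 207528_s_at, was above the control level on 2 of 3 PBS arrays and gave 1.08 and 1.26. All 3 passed in both comparisons with PBS.

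Both light chains thus ended with similar differences at 24 h but differed at 6 h. The log2 ratio of SLC7A11 to SLC7A5 within an array was 0.90 ± 0.15 in PBS, 1.89 ± 0.18 at 6 h and 0.85 ± 0.13 at 24 h (SD, n = 3). It was higher at 6 h than in PBS by 0.996, with no overlap between arrays, while the 24 h arrays overlapped those of PBS with a difference of -0.047. The exact two-sided permutation p was 0.1 for 6 h against PBS, the smallest that 3 arrays against 3 can give, and 0.7 for 24 h against PBS. Such ratios were compared 9 times over 3 pairs of genes chosen after their values were seen, and none can pass a threshold of 0.05.

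The shared heavy chain SLC3A2 (Entrez 6520, probe set 200924_s_at) gave 1066, 1120.0 and 1076 in PBS, 1311, 1291 and 1670.1 at 6 h and 1842, 1673 and 1844 at 24 h. Both HAase groups lie above all PBS arrays, and the third 6 h array comes within a few units of the lowest 24 h array. Means were 1087 ± 28.9, 1424 ± 213 and 1787 ± 98.0 (SD, n = 3). It rose 1.30-fold at 6 h, 0.38 ± 0.10 (SE; adjusted p = 0.0193), and 1.63-fold at 24 h, 0.71 ± 0.10 (SE; adjusted p = 8.87e-04). The 6 h call did not survive leaving out the first PBS array (adjusted p = 0.057) or the third PBS array (adjusted p = 0.0533). The step from 6 to 24 h, 0.33 ± 0.10 (SE; adjusted p = 0.0384), was lost under 12 of 19 alternative settings, with an adjusted p of up to 0.116.

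Of the carriers of arginine and lysine, SLC7A1 rose and SLC7A2 did not pass. SLC7A1 (Entrez 6541, probe set 212295_s_at) gave 2455, 2523 and 2462 in PBS, 3886, 3752 and 3858 at 6 h and 5891, 5959 and 5774 at 24 h. The 3 groups form separate steps with little spread in each. Means were 2479.7 ± 37.2, 3832 ± 70.4 and 5875 ± 93.3 (SD, n = 3). The log2 difference was 0.62 ± 0.044 (SE; adjusted p = 2.37e-05) at 6 h and 1.24 ± 0.044 (SE; adjusted p = 4.15e-07) at 24 h, or 2.36-fold. From 6 to 24 h it was 0.61 ± 0.044 (SE; adjusted p = 4.35e-05). The dimmer probe sets 212290_at and 212292_at gave 0.85 and 0.78 at 24 h, both called. At 6 h they gave 0.49 (adjusted p = 0.0704) and 0.58 (adjusted p = 0.0478). Its other 2 probe sets did not pass the filter, and with the mean of all 5 the 6 h difference was 0.12 (adjusted p = 0.273).

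SLC7A2 (Entrez 6542, probe set 225516_at) gave 189, 192 and 280.1 in PBS, 325, 391 and 282 at 6 h and 158, 311 and 328 at 24 h. The spread within PBS and within 24 h is wide, and the 24 h arrays span the PBS range. Means were 221 ± 51.6, 333 ± 54.6 and 266 ± 93.6 (SD, n = 3). The 24 h difference was 0.21, with a 95% interval of -0.44 to 0.85 (adjusted p = 0.599). At 6 h it was 0.57, -0.076 to 1.21 (adjusted p = 0.141), although the 6 h and PBS arrays did not overlap; 54.2% of all genes had arrays that did not overlap in that comparison. The 6 h difference passed with the mean of its 3 probe sets (0.30, adjusted p = 0.0269) and without the first 24 h array (adjusted p = 0.0366). Its other 2 probe sets did not pass the filter.

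Of the sodium-dependent exchangers, SLC1A4 (ASCT1) changed direction between the times. SLC1A4 (Entrez 6509, probe set 209610_s_at) gave 727, 721 and 664 in PBS, 511, 477 and 464 at 6 h and 1262, 1172 and 1280.1 at 24 h. All 6 h arrays are below PBS and all 24 h arrays are above it. Means were 704 ± 34.5, 484 ± 24.4 and 1238 ± 58.0 (SD, n = 3). It fell 1.44-fold at 6 h, -0.53 ± 0.064 (SE; adjusted p = 4.14e-04), and rose 1.74-fold at 24 h, 0.80 ± 0.064 (SE; adjusted p = 3.35e-05). From 6 to 24 h the rise was 2.51-fold, 1.33 ± 0.064 (SE; adjusted p = 7.60e-06). Probe sets 212811_x_at and 212810_s_at gave -0.63 and -0.63 at 6 h, then 0.71 and 0.62 at 24 h, all called. The dim probe sets 209611_s_at and 244377_at gave 0.33 and 0.35 at 24 h and were called in neither comparison with PBS.

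SLC1A5 (ASCT2, the glutamine exchanger; Entrez 6510, probe set 208916_at) gave 821, 759 and 869 in PBS, 1041, 1005 and 1007 at 6 h and 1128, 1252 and 1151 at 24 h. The groups do not overlap, though the steps between them are small. Means were 816 ± 54.8, 1018 ± 20.4 and 1177 ± 65.6 (SD, n = 3). It rose 1.24-fold at 6 h, 0.31 ± 0.066 (SE; adjusted p = 0.00637), and 1.43-fold at 24 h, 0.52 ± 0.066 (SE; adjusted p = 4.77e-04). The step from 6 to 24 h, 0.21 ± 0.066 (SE; adjusted p = 0.0479), was lost under 13 of 19 alternative settings, with an adjusted p of up to 0.14. SLC1A5 and SLC1A4 differed from PBS in opposite directions at 6 h, and both rose at 24 h.

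The glutamine importer SLC38A1 (SNAT1; Entrez 81539, probe set 224579_at) rose late. Signals were 619, 662 and 681 in PBS, 584, 638 and 521 at 6 h and 1803, 1573 and 1742 at 24 h. The 6 h arrays overlap PBS and every 24 h array is far above both. Means were 654 ± 31.9, 581 ± 58.7 and 1706 ± 119 (SD, n = 3). The 6 h difference was -0.17, with a 95% interval of -0.37 to 0.034 (adjusted p = 0.162). At 24 h it rose 2.57-fold over PBS, 1.36 ± 0.088 (SE; adjusted p = 1.01e-05), and 2.89-fold over 6 h, 1.53 ± 0.088 (SE; adjusted p = 1.53e-05). Probe set 218237_s_at gave 1.30 at 24 h and was called, while the dim 224580_at gave 0.41 and was not. Another probe set of the gene did not pass the filter.

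SLC38A2 (SNAT2; Entrez 54407, probe set 222982_x_at) was bright in all groups, with 13846, 14391 and 14522 in PBS, 15592, 15664 and 15328 at 6 h and 16365, 16795 and 15484 at 24 h. HAase arrays lie above PBS arrays, and the 2 HAase groups overlap each other. Means were 14253 ± 358, 15528 ± 177 and 16215 ± 668 (SD, n = 3). The 24 h difference was 1.14-fold, 0.19 ± 0.050 (SE; adjusted p = 0.0202), and at 6 h it was 0.12 (adjusted p = 0.0853). Its 3 probe sets gave 0.19, 0.25 and 0.25 at 24 h, all called, and 2 of the 3 passed at 6 h. The 24 h call of the gene was lost under 6 settings: no filter (adjusted p = 0.0529), equal array medians (0.0707), a fit of the 2 groups alone (0.0534), and without PBS replicate 1 (0.07), 24 h replicate 1 (0.0584) or 24 h replicate 2 (0.065).

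SLC43A1 (LAT3; Entrez 8501, probe set 204394_at) gave 285, 222 and 274 in PBS, 270.0, 270.3 and 275 at 6 h and 238, 257 and 234 at 24 h. Both HAase groups fall within the PBS range. Means were 260.2 ± 33.7, 272 ± 2.94 and 243 ± 12.2 (SD, n = 3). The differences from PBS were 0.067 at 6 h (95% interval -0.14 to 0.28; adjusted p = 0.594) and -0.087 at 24 h (-0.30 to 0.12; adjusted p = 0.497).

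Over all 27 probe sets, 22 passed the same filter and were tested in a fit of 26599 probe sets. At 24 h compared with PBS, 17 of the 22 rose and none fell (by limma at an adjusted p and at an unadjusted p under 0.05). Among all probe sets, 14.5% were higher and 18.8% lower (33.3% in either direction) at an adjusted p. At 6 h 10 rose and 3, all of SLC1A4, fell, beside 13% and 20.4% (33.4% in either direction); without PBS replicate 1 or 2, without the filter, or in a fit of the 2 groups alone, 6 rose instead of 10. From 6 to 24 h 9 rose and none fell, beside 13.6% and 11.3% (24.9% in either direction). In this fit the steps of SLC3A2 (0.33, adjusted p = 0.0526) and SLC1A5 (adjusted p = 0.0751) from 6 to 24 h did not pass. Probe sets of 1 gene share its transcripts and are not replicates. The 5 that were not tested belong to SLC7A1 (2), SLC7A2 (2) and SLC38A1 (1).

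**Figure D3:**
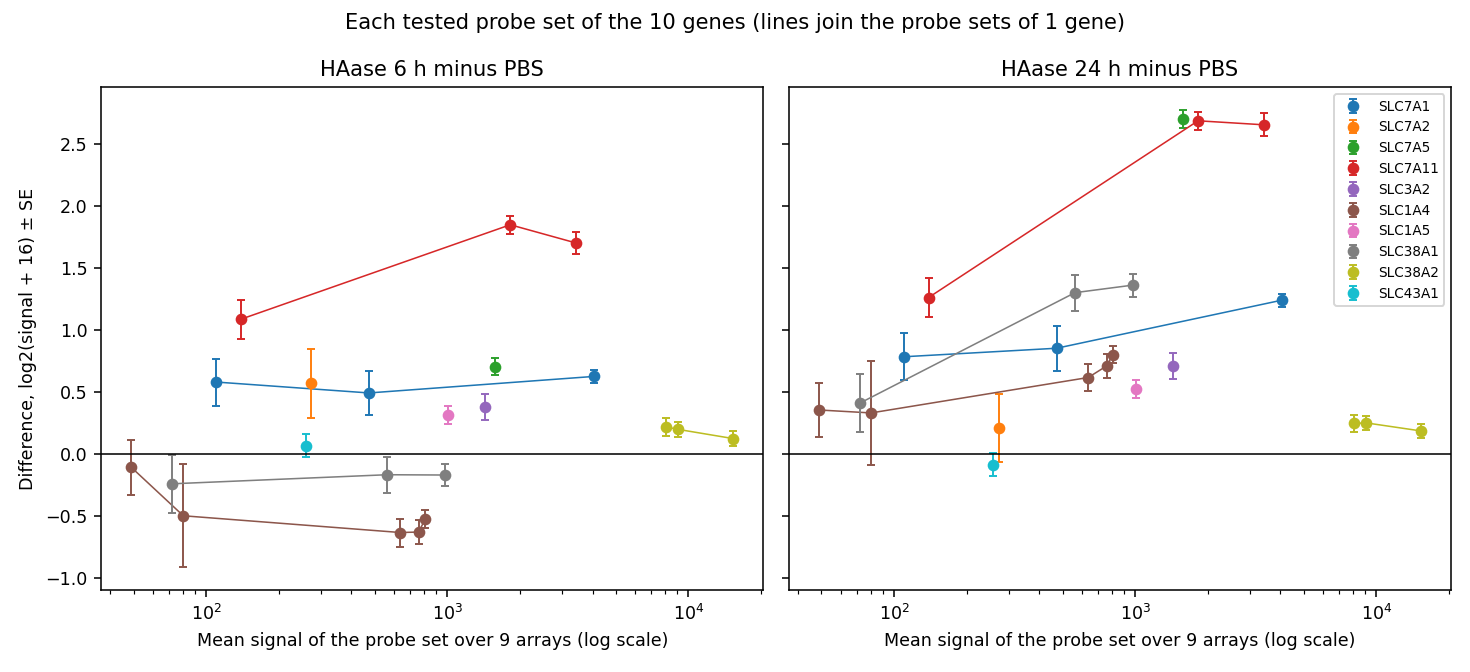
Difference from PBS on the log2(signal + 16) scale (vertical axis) for each tested probe set of the transporters at 6 h (left) and 24 h (right) of HAase, against its mean signal over the 9 arrays (log axis). Whiskers are the SE from limma and lines join probe sets of 1 gene; at 24 h the bright probe sets of SLC7A11, SLC1A4 and SLC38A1 lie close together within a gene and the dim ones nearer 0.

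The 34 other amino acid transporters listed for comparison had 21 tested members. At 24 h 5 rose and 5 fell, beside 17.5% higher and 22.8% lower among all genes, so these counts are near the background. The median was -0.18, beside -0.026 over all genes. It is the value of SLC7A7, which was above the control level on 1 PBS array and no 24 h array. At 6 h 3 rose and 5 fell, beside 15% and 27.4%, with a median of 0.074 beside -0.083 over all genes. With the mean of each gene's probe sets 2 fell, a count for which no share of all genes is given. SLC43A3, a relative of SLC43A1 known as a carrier of purine bases, gave 116, 145 and 101 in PBS, 439, 367 and 253 at 6 h and 632, 664 and 689 at 24 h. Its arrays rose from group to group without overlap, by 2.33 ± 0.19 (SE; adjusted p = 4.09e-05) at 24 h. SLC6A15, a sodium-dependent carrier of branched-chain amino acids and proline, differed by 0.90 ± 0.068 (SE; adjusted p = 2.49e-05). SLC7A8 (LAT2), another light chain of SLC3A2, went the other way from SLC7A5, with 705, 789 and 761 in PBS, 445, 585 and 548 at 6 h and 381, 301 and 348 at 24 h. It fell 2.14-fold at 24 h, -1.10 ± 0.12 (SE; adjusted p = 1.85e-04), and a second probe set gave -1.40 (adjusted p = 6.82e-04). The third, above the control level on 2 PBS arrays and 1 array of 24 h, gave -0.39 and was not called. SLC36A1 (PAT1), a proton-coupled carrier of small amino acids, had 1459.7 ± 68.0 in PBS and 747 ± 60.3 at 24 h (SD, n = 3), -0.95 ± 0.072 (SE; adjusted p = 2.46e-05). Another of its probe sets, above the control level on 2 PBS arrays and 1 array of 24 h, gave -0.073, and with the mean of its probe sets the call was lost (adjusted p = 0.11). The other genes that rose at 24 h were SLC7A6 (0.83), a light chain that exchanges arginine for neutral amino acids, SLC66A1 (0.37), a lysosomal exporter of cationic amino acids, and SLC1A1 (0.33), a glutamate and cysteine importer. The others that fell were SLC38A6 (-0.49), SLC38A7 (-0.43) and SLC6A6 (-0.20), the taurine transporter.

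Of 27 tested regulators and targets of ATF4 (28 listed), 15 rose and 4 fell at 24 h, beside 17.5% and 22.8% of all genes, with a median of 0.43. The 4 that fell were NUPR1 (-1.24), ATF3 (-0.83), EIF2AK2 (-0.77) and PPP1R15B (-0.20). NUPR1 (-1.46), ATF3 (-0.47) and EIF2AK2 (-0.81) were also called lower at 6 h, where PPP1R15B was called higher (0.36). At 6 h 11 rose and 10 fell, beside 15% and 27.4% of all genes, with a median of 0.082. With the mean of each gene's probe sets 6 fell, a count for which no share of all genes is given. From 6 to 24 h 19 rose and 3 fell, beside 19.7% and 13.3%. ASNS, which makes asparagine, gave 379.7, 443 and 370.4 in PBS, 322, 295 and 303 at 6 h and 2171, 2323 and 2229 at 24 h. Its 6 h arrays are all below PBS and its 24 h arrays far above, as for SLC1A4. The differences were -0.35 ± 0.076 (SE; adjusted p = 0.00699) at 6 h and 2.45 ± 0.076 (SE; adjusted p = 2.26e-07) at 24 h; with the mean of its probe sets the 6 h call was lost (adjusted p = 0.0701). TRIB3, a pseudokinase that restrains ATF4, rose 2.55-fold at 6 h and 5.34-fold at 24 h, the latter 2.42 ± 0.077 (SE; adjusted p = 2.54e-07). DDIT4, an inhibitor of mTORC1 signalling, rose 4.25-fold and 8.78-fold, with 3.13 ± 0.080 (SE; adjusted p = 8.03e-08) at 24 h. GDF15, a secreted stress cytokine, gave 329.5, 431 and 394 in PBS, 9286, 9458 and 9672 at 6 h and 2582, 2526 and 2783 at 24 h. It was highest at 6 h and fell from there to 24 h by 1.84 ± 0.094 (SE; adjusted p = 8.90e-06) on the log2 scale. These lists were chosen with earlier results of these data known, and their counts are descriptions.

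Among 17 tested enzymes that use the carried amino acids (20 listed), 6 rose and 6 fell at 24 h, beside 17.5% and 22.8% of all genes, with a median of -0.10. At 6 h 3 rose and 9 fell, beside 15% and 27.4% of all genes. Of these enzymes 5 fell at 6 h without PBS replicate 3, and 5 with the mean of each gene's probe sets. No share of all genes is given for those settings. BCAT1, the cytosolic transaminase of branched-chain amino acids, rose from 388 ± 12.6 in PBS to 694 ± 42.8 at 6 h and 1346 ± 25.5 at 24 h (SD, n = 3), 1.75 ± 0.059 (SE; adjusted p = 3.12e-07) at 24 h. Its mitochondrial relative BCAT2 fell from 1070.1 ± 14.7 to 596 ± 22.8, -0.83 ± 0.067 (SE; adjusted p = 3.59e-05), a call lost with the mean of its probe sets (adjusted p = 0.0781). ASS1, which makes argininosuccinate on the way to arginine, fell from 2418 ± 19.7 to 887 ± 30.7, -1.43 ± 0.060 (SE; adjusted p = 9.79e-07). GOT1, the cytosolic aspartate transaminase, fell from 2557 ± 77.3 to 1267 ± 60.9, -1.004 ± 0.060 (SE; adjusted p = 6.35e-06). GCLC and GCLM, the subunits of the enzyme that joins glutamate to the cysteine SLC7A11 supplies, both passed at 24 h in opposite directions: GCLC gave -0.62 ± 0.077 (SE; adjusted p = 3.98e-04) and GCLM 0.32 ± 0.056 (SE; adjusted p = 0.00276). The last pair was named after the values were seen.

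The list of 24 genes for amino acid sensing upstream of mTORC1 also holds RHEB and, of mTORC1 itself, MTOR, RPTOR and MLST8. None of the 22 tested rose at 24 h by limma, and 9 fell, beside 17.5% and 22.8% of all genes. At an unadjusted p under 0.05 these counts were 1 and 12, and with trended and robust moderation 1 rose. The shares of all genes given are those of the main fit at an adjusted p, not of these settings. The median was -0.25. At 6 h 1 rose and 10 fell, beside 15% and 27.4% of all genes. SESN1, of the sestrin family of leucine sensors, had 557 ± 68.9 in PBS and 262 ± 3.91 at 24 h (SD, n = 3), -1.04 ± 0.094 (SE; adjusted p = 6.83e-05). RRAGB, a Rag GTPase that recruits mTORC1 to the lysosome, fell from 599 ± 29.4 to 310.4 ± 32.4, -0.92 ± 0.094 (SE; adjusted p = 1.30e-04). MLST8, a subunit of mTORC1, gave -0.75 ± 0.19 (SE; adjusted p = 0.0139), and FNIP2, a folliculin partner, -0.74 ± 0.12 (SE; adjusted p = 0.00162). Of the other 3 probe sets of FNIP2, 2 gave -0.67 and -0.62 and were called, and the dimmest gave 0.13 and was not. SESN2, a relative of SESN1 counted here with the ATF4 genes, rose from 392 ± 44.6 in PBS to 569 ± 88.8 at 6 h and 1131 ± 19.3 at 24 h, 1.498 ± 0.12 (SE; adjusted p = 2.80e-05) at 24 h. With SESN2 among them, 1 of the sensing genes would have risen.

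**Figure D4:**
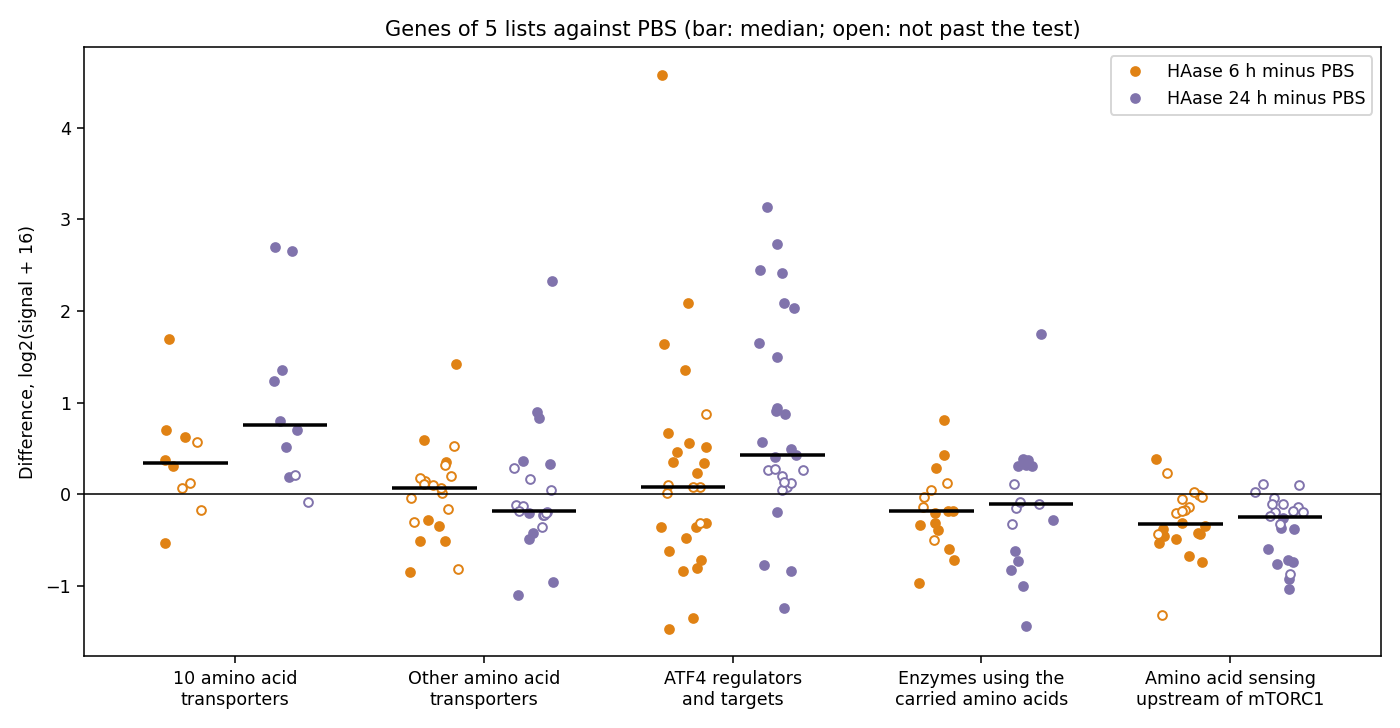
Differences from PBS on the log2(signal + 16) scale at 6 h and 24 h for each tested gene of the transporters and the 4 related lists; points are genes, filled where past the test and open where not, and bars are list medians. The 10 transporters have a median of 0.75 at 24 h, and the mTORC1 sensing genes one of -0.25.

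By Pearson correlation of log2(signal + 16) over the 9 arrays, the genes most like SLC7A5 were DNER (r = 0.997), C12orf75, C10orf90, PACC1 and FXYD5. Those most like SLC7A11 were MYRF (r = 0.998), SCG5, RGMB, FOXF2 and GNPNAT1. The 9 arrays form 3 groups, so such values mostly follow the 3 group means. An r above 0.95 was reached by 252 genes (1.82% of those tested) for SLC7A5 and by 365 (2.64%) for SLC7A11.

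Adipocyte genes, which mark the lineage of this tumour line, were also lower after HAase. All 8 listed markers were above the control level on every PBS and 6 h array and 7 of them on every 24 h array; their summed signal was 80575 to 85536 in PBS, 70174 to 73302 at 6 h and 44024 to 49558 at 24 h. None rose and 5 fell at 6 h, and none rose and 8 fell at 24 h, by limma at an adjusted p and an unadjusted p alike. Of all genes, 15% rose and 27.4% fell at 6 h, and 17.5% rose and 22.8% fell at 24 h, at an adjusted p. In such bulk RNA, fewer cells of a type and less RNA per cell cannot be told apart. The 5 measured markers of the liposarcoma amplicon summed to 10264 to 10465, 10592 to 11448 and 11642 to 11750. Among these HMGA2, a chromatin protein, rose from 51.0 ± 8.52 in PBS, where 1 of 3 arrays was above the control level, to 725 ± 29.5 at 6 h and 1643 ± 70.9 at 24 h (SD, n = 3), 4.64 ± 0.092 (SE; adjusted p = 3.16e-08) at 24 h, while the other 4 were not called at 24 h. Summed leukocyte markers (6 of 8 measured) were at 224 to 235 in PBS, 243 to 309 at 6 h and 430 to 470 at 24 h, of which 2 were above the control level on all arrays of each group, with PTPRC and LYZ at or below it throughout. Endothelial markers (6) gave 285 to 354, 384 to 436 and 432 to 463, with CDH5, TEK and CLDN5 at or below it throughout. Epithelial markers (7) gave 203 to 264, 201 to 297 and 207 to 280, with EPCAM, CDH1, KRT19, CLDN4 and ESRP1 at or below it throughout. The 2 leukocyte markers that were tested (median 0.96) and the 1 endothelial marker tested (0.53) were called higher at 24 h. At 6 h, 1 of the 2 leukocyte markers and the endothelial one were. Neither of the 2 tested epithelial markers was called at 6 or 24 h. As a measure of RNA quality, the log2 ratio of 3′ to 5′ control probe sets differed from PBS at 24 h by -0.12 for both GAPDH (exact permutation p = 0.1) and ACTB (p = 0.3), and at 6 h by -0.033 (p = 0.3) and -0.28 (p = 0.1). The part of these in the transporter differences was not tested.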

How the data were processed

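Gene expression was measured in 9 samples of LiSa-2 cells, 3 per group, grouped by their titles. Each deposited value is a linear intensity of a probe set. The authors derived these intensities from CHP files, per the series design text, and the algorithm is not given in the sources used here. Array means after trimming 2% at each end were 500.07 on all arrays, so a scaling preceded deposit. Of 54675 probe sets, 41091 had 1 symbol in the platform annotation; 1801 with several and 11721 with none, besides 62 controls, were left out of the gene tests.

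Signals were used as log2(signal + 16) without further normalization, so fold changes understate those of dim genes. The probe set of highest mean stood for a gene, and genes under the 30th percentile (signal 32.2) were left out. With limma 3.58.1 (R 4.3.3), lmFit and eBayes were run on the 9 arrays with a mean per group, a step tested on simulated data, with Benjamini-Hochberg adjustment over all genes of a comparison. A second fit took single probe sets. Exact permutation tests (Python 3.11.15) are two-sided. Arrays correlated at 0.989 to 0.991 within groups and 0.952 to 0.974 between groups.

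The transporters and lists were chosen with earlier results of these data known. Named were all 10 transporters with all probe sets; from each of 4 related lists up to 4 genes past the test at 24 h with the largest differences; and the 5 genes most correlated with SLC7A5 and with SLC7A11. Alternatives were other pseudocounts, filters, normalizations, probe set rules, moderation, a replicate block, a fit of 2 groups and leaving out each array. Names and promoters are from RefSeq (GRCh38.p14); protein sequences were not used here.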

Additional observations from a re-analysis of the deposited data

Results flagged for a closer look

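For 7 transporters the level differed between 6 and 24 h of HAase by a direct limma test of 24 h against 6 h. Time with the enzyme and time of harvest cannot be told apart in this test. In log2 units (24 h minus 6 h) the difference was 1.996 for SLC7A5, 1.53 for SLC38A1, 1.33 for SLC1A4, 0.95 for SLC7A11, 0.61 for SLC7A1, 0.33 for SLC3A2 and 0.21 for SLC1A5. All 3 arrays of 24 h were above all 3 of 6 h for each of the 7. Those of SLC3A2 (adjusted p = 0.0384) and SLC1A5 (adjusted p = 0.0479) lie close to the threshold. With 3 arrays a group, no single array was tested for standing apart.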

How the results depend on the processing

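The 30 transporter differences (10 genes, 3 comparisons) were recomputed under 19 alternatives, 9 of which leave out 1 array. Of these 570 values, 533 kept their side of the threshold, 34 lost the call and 3 gained it. No called value changed sign; the sign changed in 1 value that was never called, that of SLC43A1 at 6 h (-0.037 without PBS replicate 2, 0.067 with all arrays). The lost calls are those given for SLC1A5, SLC3A2, SLC38A2 and SLC7A1, and the gained ones those for SLC7A2 at 6 h and, with trended and robust moderation, for SLC38A2 at 6 h (0.12, adjusted p = 0.0229). The cause was not tested.

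Counts of transporter genes called stayed within 1.5 times of those reported. At 6 h, 10 transporter probe sets rose, and this count was 6 with no filter, 6 in a fit of the 2 groups alone, and 6 to 10 when 1 array was left out, at 6 without PBS replicate 1 or 2. Without the filter more genes are tested, and the share of all genes called was 25.5% at 24 h and 26.1% at 6 h compared with PBS, and 19.7% between the times. With the mean of all probe sets, 2 of the other transporters (not 5), 6 ATF4 genes (not 10) and 5 enzymes (not 9) fell at 6 h. The share of all genes that fell under this rule is not given here, so these counts have no background of their own.

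Same-numbered arrays did not deviate together (r -0.049 to 0.037 over 9 pairs, beside -0.064 to 0.057 over 18 others), so the values show no pairing by number. That does not settle whether same-numbered samples were prepared together. With the replicate number as a block, 8 transporters rose at 24 h, 5 rose and 1 fell at 6 h, and 5 rose from 6 to 24 h. In that last comparison SLC3A2 (adjusted p = 0.051) and SLC1A5 (0.0992) no longer passed. The share of all genes called with the block is not given here.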

Other observations

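SLC1A4 was not alone in being lower than PBS at 6 h and higher at 24 h. These genes, named after their values were seen, share the same PBS arrays. PSAT1, a serine synthesis enzyme, had a signal of 4034 ± 24.1 in PBS, 2258 ± 54.6 at 6 h and 7794 ± 202 at 24 h (SD, n = 3). Its log2 difference from PBS was -0.83 ± 0.046 (SE; adjusted p = 6.50e-06) at 6 h and 0.95 ± 0.046 (SE; adjusted p = 2.03e-06) at 24 h by limma. VLDLR, a lipoprotein receptor, had 212 ± 22.8, 74.2 ± 13.8 and 324 ± 30.7, with -1.35 ± 0.13 (SE; adjusted p = 1.18e-04) and 0.58 ± 0.13 (SE; adjusted p = 0.00853). ATF4 itself rose at both times, from 7668 ± 93.6 in PBS to 9759.8 ± 363 at 6 h and 14468 ± 641 at 24 h, by 0.35 ± 0.054 (SE; adjusted p = 0.00141) and 0.91 ± 0.054 (SE; adjusted p = 6.05e-06). DDIT3, a C/EBP family partner induced by stress, also rose at both, by 0.56 ± 0.058 (SE; adjusted p = 1.76e-04) and 0.88 ± 0.058 (SE; adjusted p = 1.07e-05).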
